A study of Homo sapiens with 5 samples.

Results

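The peaks called for the transcription factors MYC and HSF1 were examined at 10 genes of the BCL2 family, out of 20033 protein-coding genes on the main chromosomes. The genes were taken as listed, and no measured value was used to choose them: the anti-apoptotic genes BCL2, BCL2L1 and MCL1, the effectors BAX and BAK1, and the BH3-only genes BBC3, PMAIP1, BCL2L11, BID and BAD. A gene was given every peak with at least 1 bp in its window, from 5 kb upstream of the gene to its end (GENCODE 44, GRCh38). CUT&RUN, in which an antibody directs a nuclease to release the DNA under a bound protein, was performed in OVCAR8, an established cell line from an ovarian tumor. All cells were untreated and proliferating, and 500000 of them, fixed with 1% formaldehyde for 1 min, were used per reaction. The groups differed by antibody alone, with 2 HSF1 libraries, 2 MYC libraries and 1 IgG library. Every call was made against an IgG library that the list headers number as replicate 2, while the labels give a single IgG sample without a number, and the 2 were taken to be the same.

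The BCL2 family sets whether a cell passes the mitochondrial step of apoptosis. Its anti-apoptotic proteins hold BAX and BAK1 in check, the effectors BAX and BAK1 open pores in the outer mitochondrial membrane, and the BH3-only proteins carry stress signals to both. MYC is known both to drive growth and to sensitize cells to apoptosis, and it binds the E-box CACGTG together with MAX. HSF1 is the main activator of chaperone genes under proteotoxic stress and binds heat shock elements built from inverted repeats of GAA.

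MYC peaks lay at all 10 genes in replicate 1 and at 9 in replicate 2, with PMAIP1 missing from the latter. HSF1 peaks lay at BCL2L1 and MCL1 in replicate 1 and at MCL1 alone in replicate 2, so 8 of the 10 genes had no HSF1 peak in either list (21.1% of all protein-coding genes had one in at least 1). MYC peaks were also common over the genome: 63.3% of all protein-coding genes had one in replicate 1, 46.2% in replicate 2 and 45.4% in both lists. For HSF1 the shares were 16.5% and 12.3% in the single lists and 7.81% in both. The counts of 9 of 10 for MYC and 1 of 10 for HSF1 are read against those shares and carry no test, because the lists hold no read counts and each factor had 2 libraries.

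These 5 stretches of sequence are shown because they hold motif matches inside or next to peaks that are described with each gene. Whether a peak depends on its match was not tested. They were read from GRCh38 on the strand of each gene, and capitals mark the E-box or, at MCL1, the 13 bp heat shock element with 3 GAA units in alternating orientation. At the start of BAX (chr19:48954717-48954886, plus strand), 4 E-boxes stood within 100 bp of the MYC summit of replicate 1. At MCL1 (chr1:150572734-150572806, minus strand) the element lay in the HSF1 peaks of both lists. At BID (chr22:17774054-17774119, minus strand) and BCL2L11 (chr2:111121252-111121317, plus strand) an E-box lay in the MYC peaks of both lists. At BCL2 (chr18:63161992-63162057, minus strand) it lay in an intron 2 peak of replicate 1.
BAX: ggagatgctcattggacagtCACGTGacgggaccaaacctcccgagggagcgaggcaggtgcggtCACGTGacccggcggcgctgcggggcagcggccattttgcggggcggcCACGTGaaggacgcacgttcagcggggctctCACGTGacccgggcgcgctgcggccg
MCL1: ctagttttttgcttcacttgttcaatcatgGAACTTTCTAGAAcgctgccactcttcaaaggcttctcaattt
BID: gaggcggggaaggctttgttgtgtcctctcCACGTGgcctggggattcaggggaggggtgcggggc
BCL2L11: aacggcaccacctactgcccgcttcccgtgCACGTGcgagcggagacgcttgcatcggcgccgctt
BCL2: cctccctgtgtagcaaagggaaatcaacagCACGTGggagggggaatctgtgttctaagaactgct

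Each value below is a fold enrichment, the fragment pileup at a peak's summit over the local IgG background, as the authors' peak caller gave it. The percentile of a peak is its rank by fold enrichment within its own list. Depth was 8265647 to 10084407 filtered fragments with the antibodies and 9306942 with IgG. HSF1 was called at a p-value threshold of 1e-04 and MYC at 1e-10, so the numbers of peaks of the factors cannot be set against each other directly. The MYC lists held 25623 and 13278 peaks on the main chromosomes, with a median fold enrichment of 12.2 and 10.5, and the smaller MYC library gave the longer list. The HSF1 lists held 6421 and 4459 peaks, with medians of 5.00 and 5.21.

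**Figure D1:**
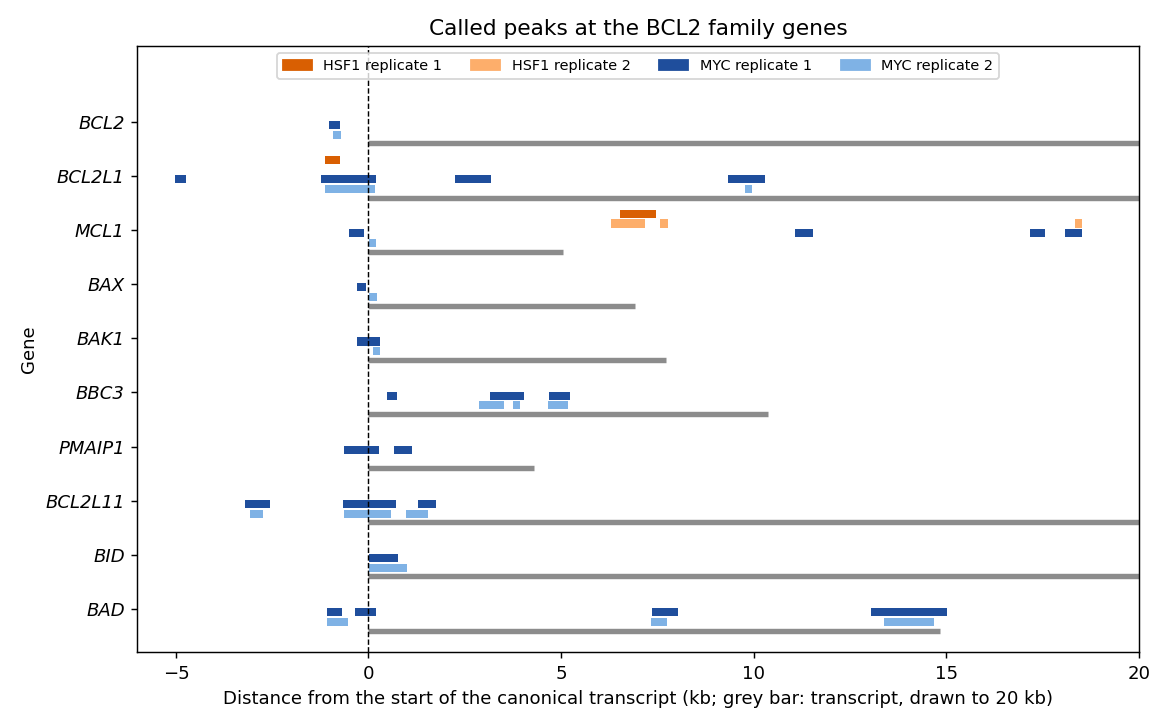
Position of each called peak at the 10 genes, in kb from the start of the canonical transcript (dashed line), with the transcript as a gray bar and 1 row of bars per list; 45 of 48 peaks are shown and 3 lie beyond 20 kb. Blue MYC bars appear at every gene, with none of replicate 2 at PMAIP1, and the orange HSF1 bars appear at BCL2L1 and MCL1 alone.

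Among the anti-apoptotic genes, BCL2, which encodes the founding survival protein of the family, had a MYC site called in both lists. This site, at chr18:63320486-63320807, was upstream of the annotated gene, with summits 531 bp and 519 bp before the gene start. Its fold enrichment was 11.5 in replicate 1 and 9.89 in replicate 2, near the middle of each list (percentiles 45.4 and 43.95). The strongest BCL2 peak, with a fold enrichment of 14.6, was instead an intron 2 peak at chr18:63161821-63162180 that replicate 2 did not call. The E-box printed for BCL2 lay 110 bp from its summit. No HSF1 peak was near BCL2: the closest lay 197737 bp from the window in replicate 1 and 459214 bp in replicate 2.

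BCL2L1, which encodes the survival protein BCL-XL, had the strongest MYC site of the 10 genes when the mean of both lists was taken. The site covered chr20:31722679-31724094, from the gene start across the start of the canonical transcript, and had a fold enrichment of 20.7 in replicate 1 and 22.1 in replicate 2. These values stood at percentiles 87.6 and 95.4, and the summits were 20 bp apart. A weaker intron 2 site, at chr20:31712576-31713538, was also in both lists, with 9.94 and 7.16. Its replicate 1 peak held an E-box 122 bp from the summit, at chr20:31712765-31712770, and its replicate 2 peak held none. Further MYC peaks were called in replicate 1 alone, at 12.4 and 9.61 inside the gene and 8.40 upstream of it.

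HSF1 was called at BCL2L1 in replicate 1 only, and weakly. An HSF1 peak at chr20:31723604-31723986 lay inside the MYC start site and had a fold enrichment of 3.24, a pileup of 18 and a −log10 p of 6.04. The other, at chr20:31678449-31678811 in intron 2, had a fold enrichment of 3.30 and a −log10 p of 5.10. Both were among the weakest of their list, at percentiles 5.02 and 5.89. HSF1 replicate 2 had no peak in the window, and neither peak passed a threshold of 1e-10 or a fold enrichment of 5. The bases around the start-site HSF1 summit (chr20:31723639-31723739, minus strand) are given because this was the one gene start of the 10 where HSF1 and MYC peaks overlapped, and they hold neither an E-box nor the heat shock element.
BCL2L1: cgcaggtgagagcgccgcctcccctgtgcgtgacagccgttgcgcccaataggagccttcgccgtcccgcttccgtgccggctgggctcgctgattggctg

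MCL1, which encodes a short-lived survival protein, was the only one of the 10 genes with a peak in all 4 lists, a pattern met by 6.45% of protein-coding genes. Its HSF1 site at chr1:150572140-150573303 had a fold enrichment of 5.38 in replicate 1 and 10.8 in replicate 2, at percentiles 59.7 and 89.8 and with pileups of 16 and 20. The summits were 36 bp apart, and the heat shock element printed above lay 171 bp from one and 135 bp from the other. Such an element was present somewhere in 10.2% of all HSF1 peaks of replicate 1 and 13.6% of replicate 2. The replicate 1 peak of MCL1 also held an E-box, 351 bp from its summit, and the replicate 2 peak held none. An E-box was present somewhere in 5.68% of all HSF1 peaks of replicate 1. The MCL1 peaks were 935 bp and 875 bp long, beside list medians of 273 bp and 289 bp. The shares were not adjusted for peak length.

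This HSF1 site was not at the MCL1 start. It lay 1959 bp and 1923 bp past the end of the canonical transcript, which covers 5053 bp, and fell in the window because the annotated gene extends over 18844 bp. With the canonical transcript as the bound, MCL1 had no HSF1 peak and the count for HSF1 in both lists was 0 of the 10 genes, beside 6.97% of protein-coding genes. In replicate 1 the peak also missed a threshold of 1e-10, with a −log10 p of 9.75 against 20.7 in replicate 2.

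The MYC peaks of MCL1 were elsewhere and differed between the lists. In replicate 1 the peak closest to the start, at chr1:150579738-150580103, had a fold enrichment of 8.47. In replicate 2 the only MYC peak, at chr1:150579409-150579603 over the first coding exon, had 6.63, and the gap between the peaks was 134 bp. The unnamed transcript ENSG00000290074 starts 148 bp from the first of these summits and 475 bp from the second, so that peaks of the 2 starts cannot be told apart. The stronger MYC peaks of replicate 1, with 16.5 and 14.6, were in the far part of the annotated gene, also past the end of the canonical transcript. The latter peak lay 239 bp from the start of the unnamed transcript ENSG00000289457 and 888 bp from the start of ADAMTSL4-AS1. At that place HSF1 replicate 2 also had a peak of 3.74 that overlapped it. The HSF1 site of both lists stood 3604 bp and 3893 bp from the nearest MYC peak of either list. By the strongest peak in each of the 4 lists, MCL1 was closest to FAS, the gene of a death receptor, among 54 other apoptosis genes. The Euclidean distance was 0.811 on log2(1 + fold enrichment). Of the 54, only FAS and the caspase gene CASP9, second at 1.43, had peaks in all 4 lists, so the choice lay mainly between them. The distance also ignored position. The MYC values of MCL1 in it, 16.5 and 6.63, came from different places. The HSF1 site of both lists overlapped no MYC peak, whereas at FAS the factors overlapped in all 4 pairs of lists.

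**Figure D2:**
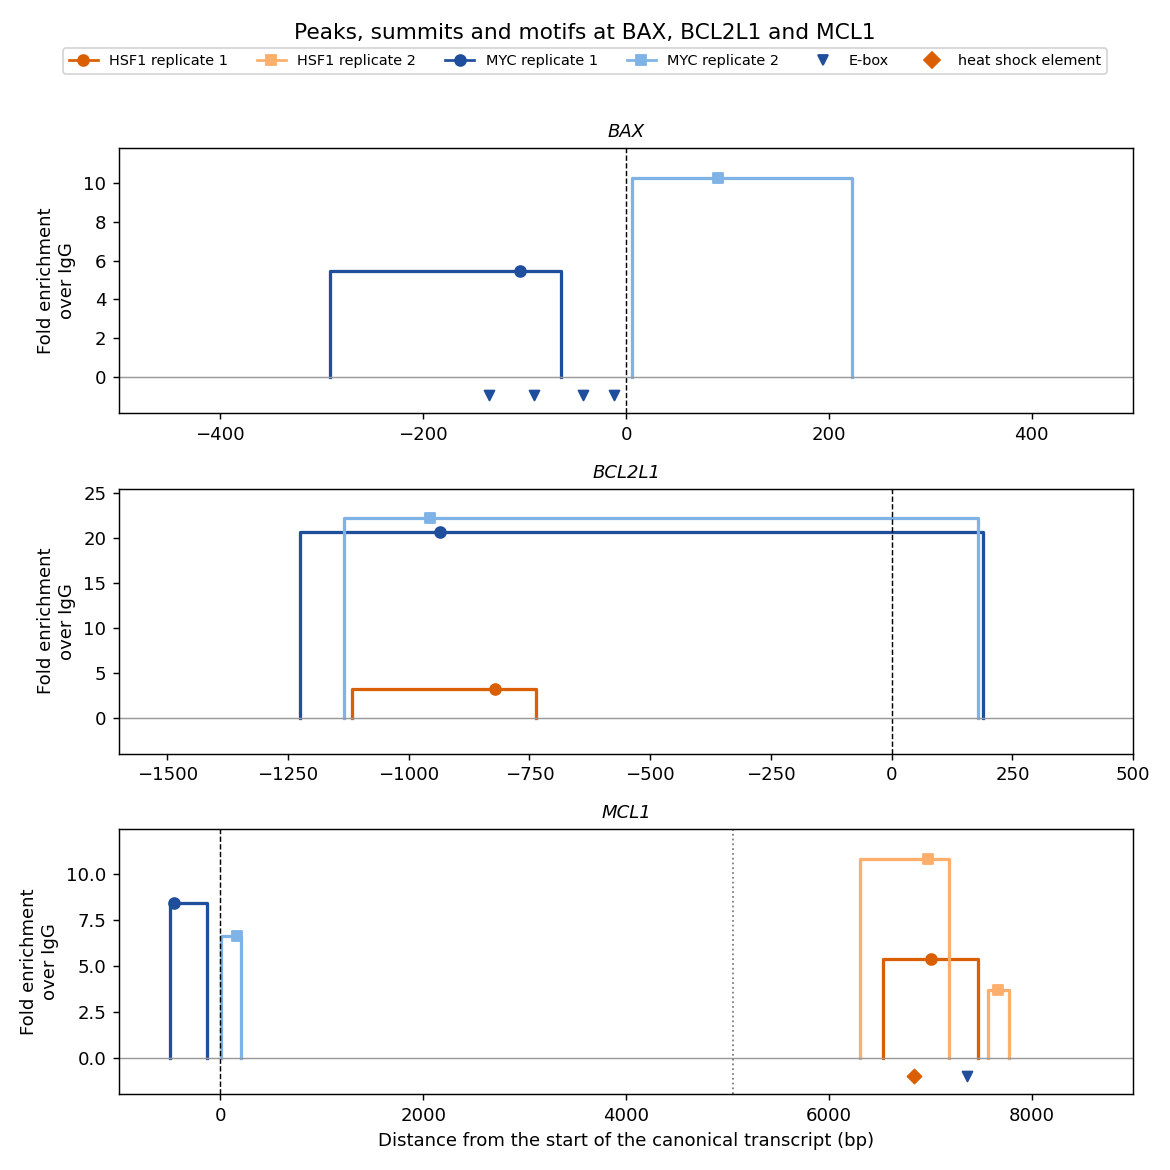
Peaks at BAX, BCL2L1 and MCL1, with the distance from the canonical start in bp on the horizontal axis and the fold enrichment over IgG on the vertical axis; brackets are peaks, symbols on them are summits, triangles are E-boxes and the diamond is the heat shock element (dotted line: canonical end; peaks farther into BCL2L1 and MCL1 are not drawn). The 2 BAX peaks leave a gap that holds 2 of the 4 E-boxes, HSF1 reached 3.24 inside the BCL2L1 site where MYC reached 20.7 and 22.1, and the HSF1 site of MCL1 lies past the canonical end.

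Of the effectors, BAX had a MYC peak at its start in each list, but in different places. In replicate 1 the peak at chr19:48954583-48954811 had a fold enrichment of 5.46 and a percentile of 0.394, one of the weakest of that list. In replicate 2 the peak at chr19:48954881-48955098 had 10.3 and a percentile of 47.6. A gap of 69 bp separated the peaks, and this gap held 2 of the 4 E-boxes printed for BAX, while the other E-boxes were inside the replicate 1 peak. The E-boxes lay 30, 15, 63 and 94 bp from the replicate 1 summit.

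At least 4 E-boxes within 100 bp of a summit were rare. Only 3 of 25623 MYC peaks of replicate 1 and 1 of 13278 of replicate 2 had them. Among 27305 RefSeq promoters (GRCh38.p14, 250 bp before to 50 bp after a gene start), 5 had at least 4 E-boxes and 7.43% had any. Of the 10 genes, 9 matched a RefSeq promoter, of which BAX held 4 E-boxes, BBC3 held 1 and the others none, and none held a heat shock element (0.487% of all promoters). These are matches of letters, and the weak and shifted peaks at BAX are given beside them as measured.

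BAK1, the other effector, had overlapping MYC peaks of both lists at chr6:33579972-33580568, of which that of replicate 1 covered the start and that of replicate 2 lay inside the gene. The fold enrichment was 11.6 in replicate 1 and 8.58 in replicate 2, and the summits stood 217 bp apart. Neither effector had an HSF1 peak. The nearest HSF1 peaks lay 68548 bp and 180918 bp from the BAK1 window. For BAX they were much closer, 2894 bp and 2962 bp past the window, at the start of the neighboring ferritin gene FTL.

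BBC3 encodes PUMA, a BH3-only protein induced by p53, and all its MYC summits were in introns. The intron 3 site at chr19:47225969-47226533 had a fold enrichment of 14.8 in replicate 1 and 11.6 in replicate 2. In intron 2, at chr19:47227163-47228323, 1 peak of replicate 1 with 10.8 overlapped 2 peaks of replicate 2 with 13.5 and 6.95. An intron 1 peak of 11.1 was called in replicate 1 alone. The upstream promoter of BBC3 (1 kb upstream to 100 bp downstream of the gene start) had no MYC peak in either list.

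PMAIP1, which encodes the BH3-only protein NOXA, was the only one of the 10 genes with a MYC peak in just 1 list. Replicate 1 had a peak at chr18:59899367-59900266 with a fold enrichment of 12.9 and a summit 196 bp before the start, and a second in intron 1 with 11.7. Both were mid-ranked in their list, at percentiles 56.7 and 47.1. Replicate 2 had no MYC peak within 176370 bp of the window, although this library held more fragments. The missing call says only that no peak passed the threshold at this depth, not that MYC was absent from PMAIP1.

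BCL2L11 encodes BIM, which binds all the main survival proteins, and its 3 MYC peaks of replicate 1 were each matched by a peak of replicate 2. The strongest site, at chr2:111120256-111121628 over the canonical start, had a fold enrichment of 15.6 in replicate 1 and 21.7 in replicate 2, with percentiles of 72.0 and 94.97. The sites on either side had lower values, 10.5 and 9.80 for the upstream one and 11.1 and 11.7 for the one in intron 1. The E-box printed for BCL2L11 lay in the strongest site in both lists but 727 bp and 633 bp from the summits. The summits of all 3 sites also lie inside the annotated span of the long noncoding MIR4435-2HG, and those of the upstream site inside that of ACOXL.

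BID, which links death receptors to mitochondria, had 1 MYC site in both lists, at chr22:17773468-17774465. It reached close to the canonical start at chr22:17774469. Its summits, in intron 1, were 469 bp and 99 bp past that start. Its fold enrichment was 14.1 in replicate 1 and 15.1 in replicate 2, the values of the lists lying close together. The summits were 370 bp apart, so that the printed E-box stood 87 bp from the summit of replicate 1 and 283 bp from that of replicate 2.

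BAD, a BH3-only protein controlled by growth factor signaling, had 3 MYC sites in both lists, and all their summits lie inside the annotated span of GPR137. The strongest, in intron 2 at chr11:64276630-64277332, had a fold enrichment of 25.0 in replicate 1 and 15.8 in replicate 2, with summits 10 bp apart. The site over the last coding exon (chr11:64269639-64271614) had 13.6 and 10.6, and the site upstream of the start (chr11:64285192-64285744) had 7.56 and 14.2. The summits of the last exon stood 199 bp and 248 bp from a start of GPR137, and those of the upstream site 147 bp and 206 bp from another. The peaks at BAD and at GPR137 cannot be told apart in these lists. In replicate 1 a further peak of 7.10 covered the BAD start itself.

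**Figure D3:**
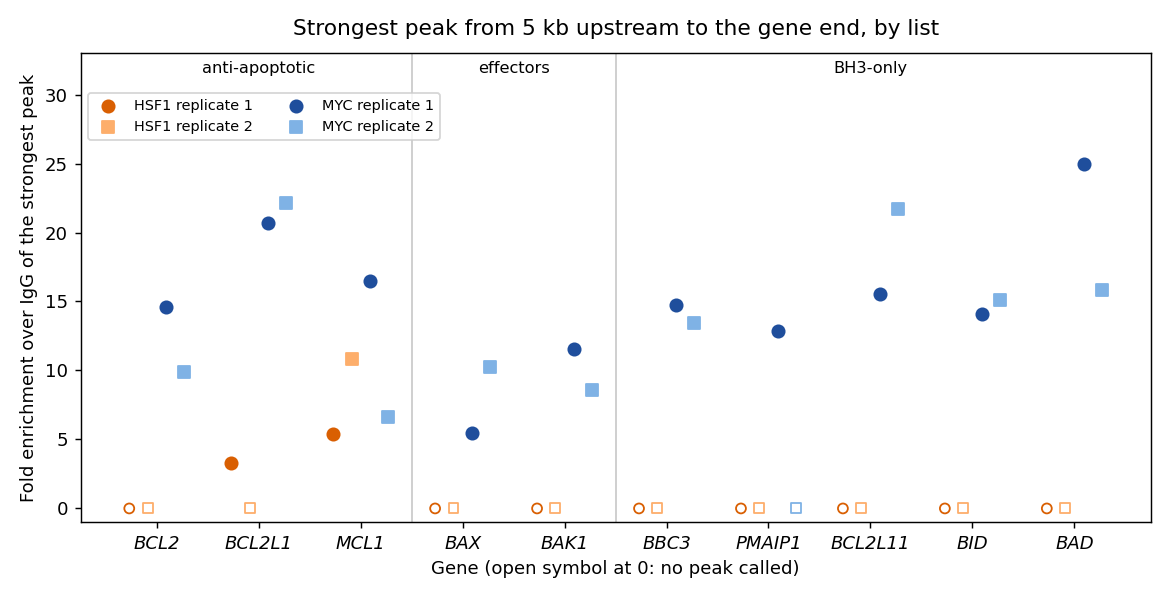
Fold enrichment over IgG (vertical axis) of the strongest peak in the window of each gene (horizontal axis, by role), with 1 symbol per list and an open symbol at 0 where no peak was called. MYC values run from 5.46 at BAX to 25.0 at BAD, and filled HSF1 symbols stand at BCL2L1 and MCL1, the highest at 10.8.

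Over all their windows the 10 genes held 26 MYC peaks in replicate 1 and 16 in replicate 2. Of these, 13 of 26 and 14 of 16 overlapped a peak of the other list, beside 46.9% and 92.6% of all MYC peaks. Of the 10 genes, 7 had overlapping peaks of both lists (BCL2, BCL2L1, BAK1, BBC3, BCL2L11, BID and BAD), a pattern that 44.5% of protein-coding genes met. MCL1 and BAX had peaks of both lists that did not overlap, and PMAIP1 had peaks of replicate 1 alone. For HSF1, 1 of 3 peaks in each list overlapped the other list, beside 34.0% and 48.3% of all HSF1 peaks. That peak was the MCL1 site, and 6.38% of protein-coding genes had overlapping HSF1 peaks of both lists.

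The 7 genes held 13 such MYC sites, of which 7 were higher in replicate 1 and 6 in replicate 2. Ordered by the mean of their strongest site, BCL2L1 came first with 21.4 ± 1.02 (SD, n = 2), then BAD with 20.4 ± 6.49 and BCL2L11 with 18.7 ± 4.35. BID followed with 14.6 ± 0.714 and BBC3 with 13.2 ± 2.21. BCL2 with 10.7 ± 1.17 and BAK1 with 10.1 ± 2.12 were last. The values of neighbors in this order overlapped between lists except between BCL2L11 and BID and between BBC3 and BCL2. Those 2 gaps were narrow, 15.58 against 15.13 and 11.63 against 11.55. With n = 2 per gene, neither the order within the first 3 genes nor that of neighbors further down is resolved. The replicates differed most at BAD, where replicate 1 was 1.58 times replicate 2 at the intron 2 site and 0.532 times it at the upstream site.

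**Figure D4:**
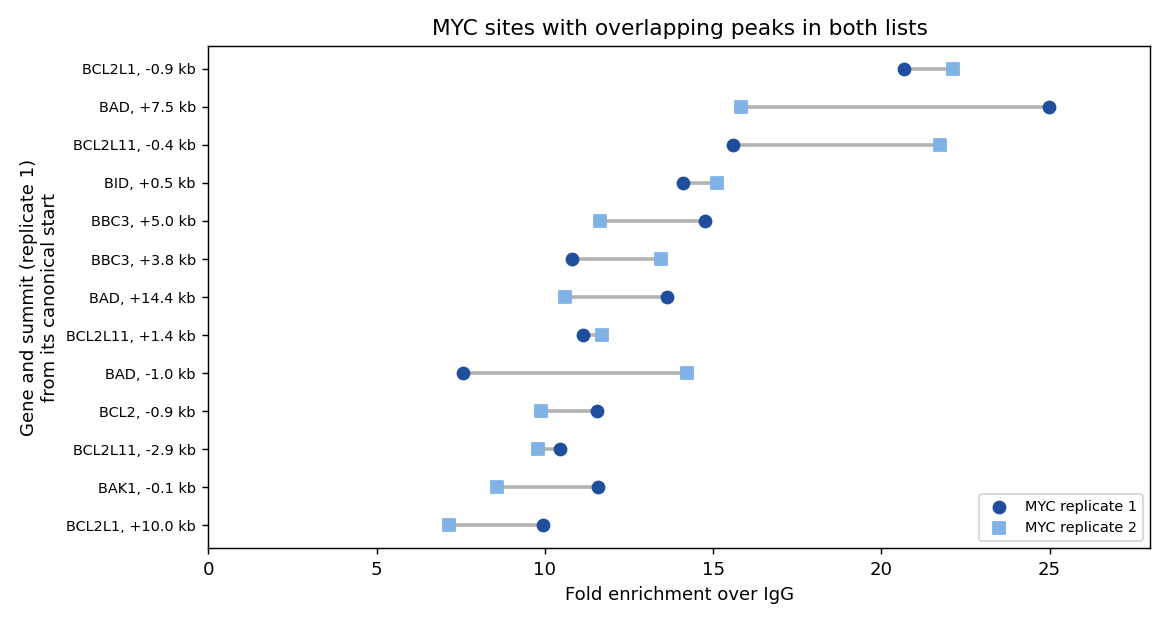
Fold enrichment over IgG (horizontal axis) of the 13 MYC sites called in both lists, 1 row per site, ordered by the mean of replicate 1 (circle) and replicate 2 (square), with the distance of the replicate 1 summit from the canonical start in each label. The BCL2L1 start site is highest on average, and the widest gaps between replicates are at BAD.

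Restricting the windows to promoters (1 kb upstream to 100 bp downstream of the gene start) left 7 of the 10 genes with a MYC peak in replicate 1 and 4 in replicate 2. The background shares were 43.5% and 30.7%. BCL2, BCL2L1, BAX and BAD had one in both lists, where 29.4% of protein-coding genes and 48.1% of 54 other apoptosis genes did. An HSF1 peak in a promoter was called at BCL2L1 in replicate 1 and at no gene in replicate 2, with shares of 5.47% and 4.06%. No BCL2 family gene had a promoter HSF1 peak in both lists, beside 2.01%. These promoters are counted from the outermost annotated start, which at BID lies 301 bp, at BCL2L11 1536 bp and at BBC3 1567 bp before the canonical one. With the promoter of the canonical transcript (1 kb upstream to 500 bp downstream), 8 of the 10 genes had a MYC peak in both lists, beside 35.8% of protein-coding genes. This setting was added after the data were seen, and it changed both the start and the downstream reach. BAK1, whose canonical start lies 17 bp from its gene start, was gained through the longer reach.

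Longer windows hold peaks more often, so the genes were also set beside genes of like window length. The windows of the 10 genes ran from 9310 bp to 201783 bp with a median of 21860 bp, shorter than the median of 32471 bp over all protein-coding genes. With windows under 20 kb, 4 of 5 BCL2 family genes had a MYC peak in both lists, beside 35.4% of all such genes. From 20 to 60 kb it was 3 of 3 beside 49.4%, and from 60 kb 2 of 2 beside 52.4%. An HSF1 peak in either list was present at 0 of 5, 1 of 3 and 1 of 2 genes, beside 11.4%, 19.7% and 33.4%.

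The question of shared binding by the factors was addressed by overlap. An HSF1 peak overlapped a MYC peak in any pair of lists at BCL2L1 and MCL1, 2 of the 10 genes, beside 16.8% of protein-coding genes. In the replicate 1 lists it was BCL2L1 alone, beside 13.2%, and in the replicate 2 lists none, beside 6.96%. In all 4 pairs of lists 3.9% of protein-coding genes and none of the 10 had an overlap. At MCL1 the overlap came from the far peak near ADAMTSL4-AS1 and not from the HSF1 site of both lists.

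E-boxes stood near few MYC summits, both at these genes and over the whole lists. Within 100 bp of a summit, 2 of 26 MYC peaks of replicate 1 (at BAX and BID) and 0 of 16 of replicate 2 held one. Over all MYC peaks the shares were 6.74% and 6.82%. Anywhere in the peak, an E-box was present in 5 of the 26 and 2 of the 16, beside 18.5% and 21.3%. The 200 bp around the MYC summits at these genes had a median GC content of 64.2% in replicate 1 and 68.9% in replicate 2, beside 57.7% and 63.2% in the whole lists.

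Further apoptosis genes give the setting of the family. The list held 54 genes, among them more distant BCL2 relatives, caspases, inhibitors of apoptosis, death receptors and p53 family members. MYC peaks were present at 43 of them in replicate 1, at 36 in replicate 2 and at 36 in both (66.7%, beside 45.4% of all protein-coding genes). HSF1 peaks were present at 5 in replicate 1, 8 in replicate 2 and 2 in both (3.7%, beside 7.81%). The highest MYC fold enrichments, as the mean of the strongest peak of each list, were 25.5 at BCL2L2, the gene of the survival protein BCL-w, 21.6 at BOK, a BAX relative, 20.9 at FOXO3, a transcription factor upstream of BCL2L11, 20.5 at CASP9 and 19.2 at VDAC1, a channel of the outer mitochondrial membrane. By this mean BCL2L2 and BOK were above the 21.4 of BCL2L1, the highest of the 10 family genes. That order came from replicate 1, with 34.5 at BCL2L2 and 28.6 at BOK beside 20.7 at BCL2L1. In replicate 2 both were below BCL2L1, with 16.5 and 14.7 beside 22.1. The strongest BCL2L2 summits lay 4756 bp and 4725 bp before its canonical start. For BOK, however, the strongest peaks of the lists were at different sites. They were 28.6 at chr2:241546683-241547532 in replicate 1 and 14.7 at chr2:241558724-241559822 in replicate 2. The other list had 12.2 and 14.9 at these sites. The 21.6 of BOK is therefore not the mean of a single site, unlike the 21.4 of BCL2L1.

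CASP9 and FAS were the genes of this list with HSF1 in both lists, and the factors overlapped there. At CASP9, the initiator caspase downstream of mitochondrial pores, HSF1 reached 8.20 and 8.37 and MYC 25.0 and 15.9, with HSF1 summits 533 bp and 519 bp before the canonical start. At FAS, HSF1 reached 5.26 and 6.12 and MYC 17.3 and 8.65, with HSF1 summits 423 bp and 452 bp before the canonical start. At both genes the peaks overlapped in all 4 pairs of lists, as at 3.9% of protein-coding genes and none of the 10 family genes. These 2 were 3.7% of the 54 genes. An overlap in any pair of lists was present at 10 of the 54 (18.5%), beside 2 of the 10 family genes.

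**Figure D5:**
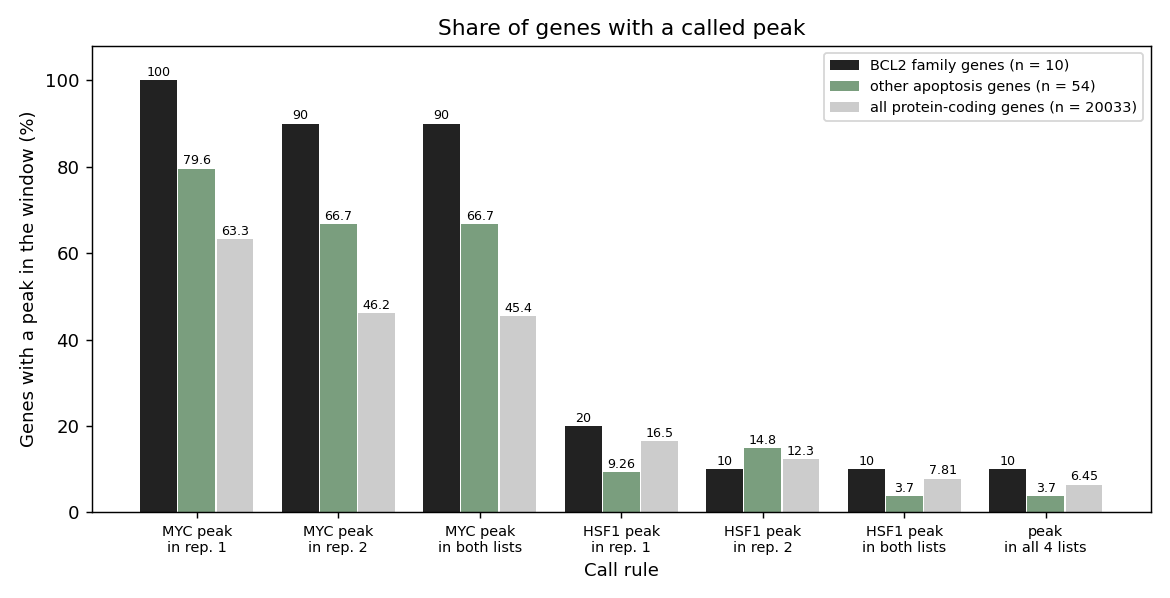
Share of genes with a called peak in the window (vertical axis, %) under 7 call rules (horizontal axis) for the 10 BCL2 family genes (black), 54 other apoptosis genes (green) and 20033 protein-coding genes (gray). For these whole windows the MYC bars fall from black to green to gray, while the HSF1 bars of the family stand for 2, 1 and 1 genes beside backgrounds of 16.5%, 12.3% and 7.81%.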

How the data were processed

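Peak lists of 4 CUT&RUN libraries of OVCAR8 cells were analyzed. The authors trimmed the reads, used Bowtie 2 for alignment (GRCh38/hg38) and ran MACS 2.2.9.1 on each library against IgG, which was used only through these calls. The deposited columns used were the position, the pileup (a signal in fragments, scaled to the smaller library), the −log10 p-value and the fold enrichment, a ratio to IgG. The deposited −log10 q-value was not used, as the headers state that none was calculated. The labels number the replicates without naming separate cultures, so the spread between them may be technical. Peak lists hold no expression, so cell identity was not checked.

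Windows, overlaps (1 bp) and motifs on both strands were computed with Python 3.11.15, pandas 2.3.3, numpy 2.4.6 and pysam 0.24.0, and tested on simulated data. Figures were drawn with matplotlib 3.10.9. No test was run: 2 lists per factor cannot pass an exact test. All 10 genes were named, with the other apoptosis genes that had HSF1 in both lists, the 5 with the highest mean MYC fold enrichment, the one most like each gene found in all 4 lists, and neighbors starting within 1 kb of a summit. FTL falls outside this rule and was named after its peaks were seen, as were MIR4435-2HG and ACOXL, whose spans hold BCL2L11 summits. The genes and lists were chosen with earlier results of these data known. Of the alternatives, 17 were planned and 3 were added after the data were seen.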

Additional observations from a re-analysis of the deposited data

How the results depend on the processing

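The HSF1 count rests on MCL1. Of the 10 genes, 1 had HSF1 peaks in both lists, which became 2 with a peak in either list (21.1% of all protein-coding genes) and 0 with the promoter alone (2.01%), the promoter of the canonical transcript (2.44%), the bounds of the canonical transcript (6.97%) or HSF1 peaks at 1e-10 (2.83%). Leaving out 1 list at a time gave 1 to 2. The count of genes with peaks in all 4 lists, also 1, became 2 with either list (19.8%), 0 with the promoter alone (1.7%), canonical bounds (5.65%), HSF1 at 1e-10 (2.32%) or MYC at 1e-20 (5.3%), and 1 to 2 with 1 list left out. BCL2L1 was the gene added without HSF1 replicate 2. Overlap of the factors in all pairs of lists, 0 genes, became 2 with any pair (16.8%) and 0 to 1 with 1 list left out. The MYC count of 9 became 4 with the promoter alone (29.4%), 5 at 1e-20 (32.9%; BCL2L1, BBC3, BCL2L11, BID and BAD) and 9 to 10 with 1 list left out. Of the 54 other apoptosis genes, the 2 with HSF1 in both lists became 11 with either list, 0 with the promoter alone and 1 at 1e-10. The promoter here was counted from the outermost annotated start. The HSF1 summits of both lists lay 1786 bp and 1800 bp past that start at CASP9 and 36562 bp and 36533 bp past it at FAS. The median over genes of the strongest MYC peak, 14.06 (mean of both lists), was 11.89 for promoters alone. An E-box stood near a MYC summit at 2 genes in at least 1 list and 0 in both. These became 5 and 2 with the whole peak and 6 and 1 within 250 bp. For the heat shock element at HSF1 summits the counts were 0 and 0, and 1 and 1 (MCL1) under both alternatives. Of 180 counts of lists for single genes under the other windows and thresholds, 162 stayed as they were and 18 moved. No paired analysis was possible because the results come from no test. The lists show calls, not signal, and a gene without a call may lie just under a threshold.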

Other observations

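Outside the windows, HSF1 peaks were called in both lists close to the ends of BCL2L1 and BAX. Past the end of BCL2L1, the summits stood 2523 bp away in replicate 1 (fold enrichment 5.65) and 2454 bp and 2051 bp away in replicate 2 (5.31 and 4.67), all above the 3.24 and 3.30 inside the window. Past the end of BAX, the HSF1 summits lay 3195 bp and 3261 bp away with a fold enrichment of 9.20 and 16.2, at percentiles 92.0 and 95.1. These summits were 316 bp and 250 bp from the start of FTL, which encodes the ferritin light chain, and MYC peaks of 12.4 and 8.22 were called there as well.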
